A study of Mus musculus with 6 samples.

Results

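The 10 genes described here encode costimulatory and checkpoint receptors of T cells: Cd28, Ctla4, Icos, Pdcd1, Lag3, Havcr2, Tigit, Btla, Cd160 and Cd200. They were taken by gene name from a table of 24182 genes, in which all 10 were present, and receptors of the TNF superfamily were not included. Levels were measured by bulk RNA sequencing in Th17 cells of the mouse, a class of CD4 T helper cell that makes interleukin 17. Cells labelled Sirt2 KO had been targeted with CRISPR/Cas9 at Sirt2, the gene of a NAD-dependent deacetylase (3 libraries), and Sirt2 WT cells were the controls (3 libraries). Cells of both genotypes had received anti-CD3 at 0.5 μg/mL with anti-CD28 at 1 μg/mL over 72 hours before total RNA was prepared, so the CD28 protein itself was engaged by antibody in both groups. Strain, age, the guide used in either group and whether the KO cells were a clone are not given in the labels, which call the treatment "untreated". Nothing in the labels says that replicates were separate cultures or animals, so the p-values measure the spread between libraries, which may be technical.

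A T cell that binds antigen also reads a second set of signals. CD28 and ICOS amplify the antigen signal by recruiting phosphoinositide 3-kinase, while CTLA-4 competes with CD28 for the shared ligands CD80 and CD86. PD-1, BTLA and TIGIT recruit phosphatases through tyrosine motifs in their tails, LAG-3 binds MHC class II, and TIM-3, the product of Havcr2, is linked with exhausted T cells. CD200 is mainly known as the ligand of the inhibitory receptor CD200R on myeloid cells. Many of these genes are switched on by antigen receptor signalling itself, so activated T helper cells can express stimulatory and inhibitory receptors together.

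The tyrosine motifs of the receptor tails are shown because they are the sites through which several of these receptors signal. Each is given as the coding strand of GRCm38, read through GENCODE vM21 transcripts, with the codons of the motif in capitals and 3 codons on each side in lower case. A search of the last 70 codons found the motif of a tyrosine followed 3 residues later by a methionine, the binding site of phosphoinositide 3-kinase and, in CTLA-4, also of the clathrin adaptor that internalises it, in Cd28, Ctla4 and Icos.
Cd28, chr1:60769684-60769713, plus strand: caaagtgacTACATGAACATGactccccgg
Ctla4, chr1:60914637-60914666, plus strand: acaggggtcTATGTGAAAATGcccccaaca
Icos, chr1:60995551-60995580, plus strand: aatagtgaaTACATGTTCATGgcggcagtc
The tyrosine is codon 189 of 218 in Cd28, 201 of 223 in Ctla4 and 181 of 200 in Icos. The immunoreceptor tyrosine-based inhibitory motif (ITIM) and the related switch motif (ITSM), which dock phosphatases, were found in Pdcd1 and Btla, and an ITIM was found in Tigit.
Pdcd1 ITIM, chr1:94039479-94039514, minus strand: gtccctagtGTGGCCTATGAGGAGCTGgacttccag
Pdcd1 ITSM, chr1:94039410-94039445, minus strand: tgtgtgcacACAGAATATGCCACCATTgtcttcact
Btla ITIM, chr16:45250481-45250516, plus strand: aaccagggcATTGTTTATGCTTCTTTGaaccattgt
Btla ITSM, chr16:45250556-45250591, plus strand: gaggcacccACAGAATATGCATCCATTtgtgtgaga
Tigit ITIM, chr16:43649025-43649060, minus strand: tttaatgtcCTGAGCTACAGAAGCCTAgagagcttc
All of these stretches lie within 1 coding exon of the transcript that carries most of the gene's signal. The same search found none of these motifs in the last 70 codons of Lag3, Havcr2, Cd160 or Cd200.

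Levels are in FPKM, a fragment count divided by transcript length and by the size of the library, which allows genes to be ordered. Summed over all genes, FPKM was 303772 to 321734 per library, and read depth is unknown because no counts were given. The targeted gene Sirt2 had 11.2, 13.5 and 10.9 FPKM in the KO libraries against 20.7, 19.9 and 21.9 FPKM in the WT libraries, a log2 fold change of -0.76 that passed the test (limma, adjusted p = 0.0429). The call was lost under 9 of 14 alternatives (adjusted p 0.00575 to 0.376 over all 14), though KO stayed lower in each (log2 fold change -0.85 to -0.71). The authors' deposited q-value for Sirt2, from a tool not given, was 4.07e-08, though the gene was not marked significant there. Its RNA thus remained at a ratio of means of 0.572, KO over WT, and these data do not show whether the protein was lost. Sirt2 overlaps Nfkbib on the opposite strand, and the strandedness of the counting is not given. KO replicate 3 stood apart: its profile over tested genes was nearer to each WT library (correlation 0.990) than to the other 2 KO libraries (0.981 and 0.979), which were alike (0.992). The difference from the WT mean also ran in opposite directions with transcript length, taken from the most abundant transcript of each gene. Spearman correlations over 10827 genes were -0.33 in KO replicate 1, -0.46 in KO replicate 2 and 0.23 in KO replicate 3. The fold changes of the tested members are therefore given with and without KO replicate 3. Without it, the KO group is only the 2 libraries that were alike. The spread is narrowed by that choice, so p-values and calls of that fit may be too small and too many.

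Ctla4 was by far the most abundant of the 10 genes, Cd200, Cd28, Btla and Icos followed, and Havcr2 and Cd160 stayed under 1 FPKM in every library. None of the 8 receptors expressed well enough to be tested differed between genotypes past the threshold. Lag3 and Tigit were the tested members whose KO values all lay above the WT values, and both missed the adjusted threshold. Cd28, Btla, Icos, Lag3 and Pdcd1 each had KO replicate 3 on one side of the other 2 KO libraries and at a distance from them, and the calls for Cd28, Btla and Pdcd1 turned on that library.

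**Figure D1:**
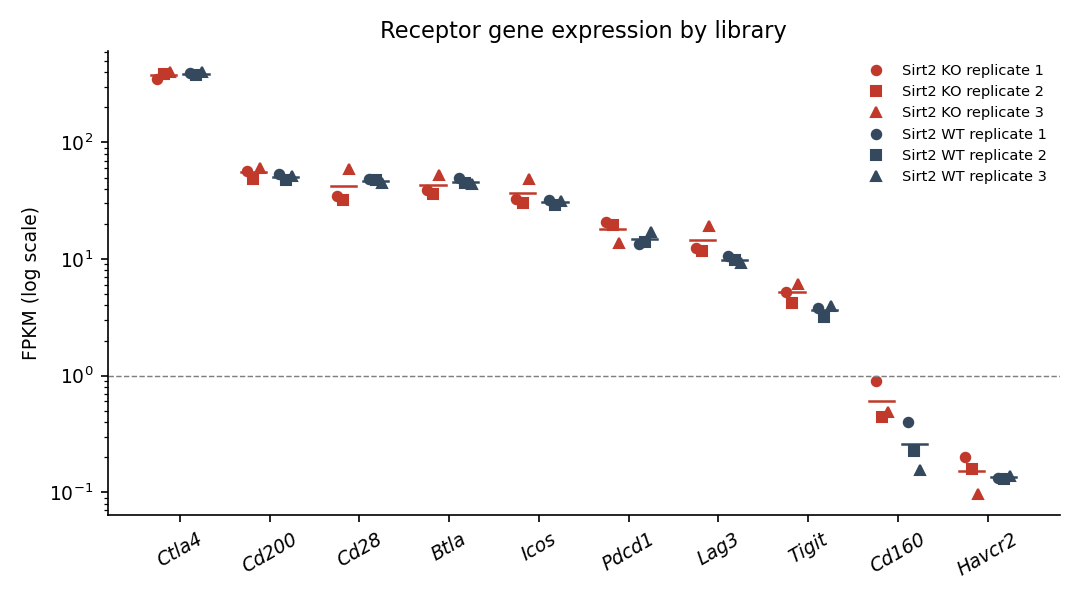
FPKM (log axis) of the 10 receptor genes in each library, Sirt2 KO to the left in red and Sirt2 WT to the right in dark blue; horizontal lines are group means, and the dashed line is the 1 FPKM used for filtering. Ctla4 lies between 349 and 403 FPKM in all 6 libraries, and Cd160 and Havcr2 lie under the line in all 6.

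The order of the levels over all libraries was Ctla4, Cd200, Cd28, Btla, Icos, Pdcd1, Lag3, Tigit, Cd160 and Havcr2. The step from Ctla4 to Cd200 was a ratio of means of 7.27, that from Icos to Pdcd1 was 2.06, that from Lag3 to Tigit was 2.76 and that from Tigit to Cd160 was 10.1, and at these 4 steps the ranges over the 6 libraries were separate. The other neighbours had overlapping ranges. Within a library, Cd200 exceeded Cd28 in 5 of 6 libraries, Cd28 exceeded Btla in 3 of 6, Btla exceeded Icos in 6 of 6, Pdcd1 exceeded Lag3 in 5 of 6 and Cd160 exceeded Havcr2 in 6 of 6. Cd28 and Btla were thus not ordered by these gene values. Among transcript values, the most abundant transcript of Cd28 exceeded that of Btla in every library. That of Cd28 had 48.7, 45.5 and 83.9 FPKM in KO libraries and 68.2, 67.3 and 62.55 FPKM in WT libraries. That of Btla had 39.1, 37.1 and 53.1 FPKM in KO libraries and 49.5, 44.6 and 44.3 FPKM in WT libraries.

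KO was compared with WT with limma on log2(FPKM + 1) across all 10873 genes that reached 1 FPKM in at least 3 of 6 libraries. The Benjamini-Hochberg adjustment ran over all of them, and an adjusted p under 0.05 was called. Of the 8 members tested, 0 were called, against 12 of all tested genes or 0.11%. At an unadjusted p under 0.05 there were 2 members, Tigit and Lag3, against 610 of all tested genes or 5.61%. The log2 fold change was positive for 5 members and negative for 3, with a median of 0.18 over the members and -0.03 over all genes tested. Without KO replicate 3, 1 of the 8 members was called higher in KO against 4.0% of all genes tested, and 2 were called lower against 6.14%. In the authors' deposited table, 0 of the 10 members and 102 genes in all had a q-value under 0.05, and Lag3 (p = 0.001, q = 0.139), Cd160 (p = 0.013, q = 0.652) and Tigit (p = 0.022, q = 0.818) had a p-value under 0.05. In bulk samples, fewer cells that express a gene and less RNA of it per cell cannot be told apart.

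**Figure D2:**
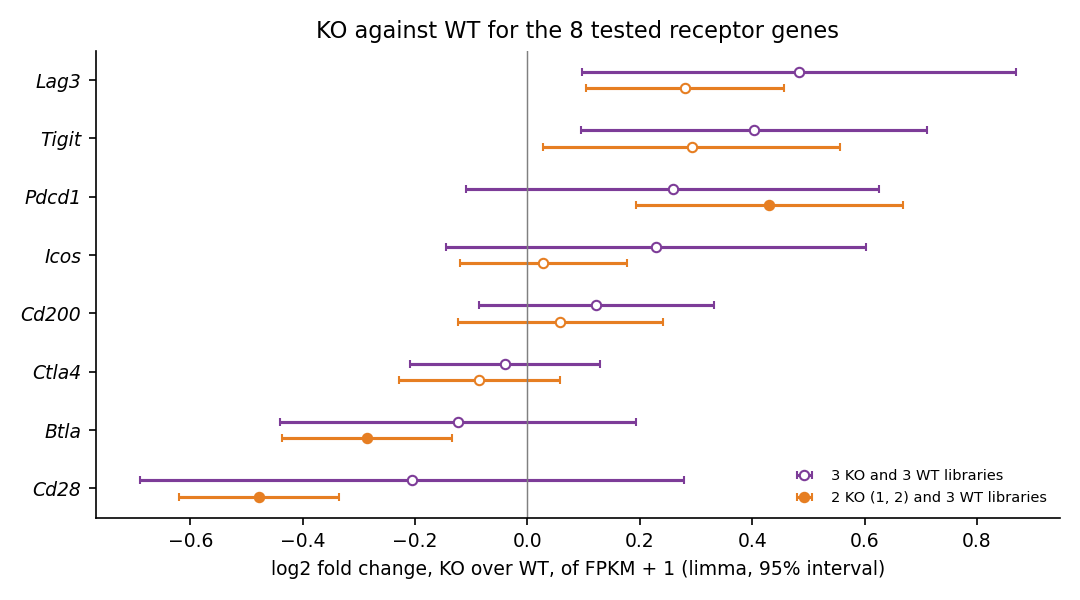
Log2 fold change of FPKM + 1, KO over WT, with its 95% interval from limma for the 8 tested receptor genes, with all libraries (purple) and without KO replicate 3 (orange); filled points passed an adjusted p of 0.05. No purple point is filled, and the filled orange points are Pdcd1 at 0.43, Btla at -0.29 and Cd28 at -0.48.

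Among the costimulatory receptors, Cd28 (ENSMUSG00000026012, GRCm38 chr1:60716800-60773359, plus strand) encodes the receptor that the culture antibody engaged. It had 34.6, 32.3 and 59.6 FPKM in KO replicates 1 to 3 against 48.6, 47.9 and 44.5 FPKM in WT replicates 1 to 3. KO replicates 1 and 2 lay below every WT library and KO replicate 3 lay above every one. Means were 42.2 ± 15.2 FPKM in KO and 47.0 ± 2.20 FPKM in WT (SD, n = 3 each), and the log2 fold change was -0.21 (SE 0.21, 95% interval -0.69 to 0.28, limma adjusted p = 0.877). It was -0.48 (SE 0.06) without KO replicate 3 and was called (limma adjusted p = 0.0103). When the per-library trend with transcript length and GC content was removed as well, it was -0.32 and was still called (limma adjusted p = 0.018). The removal of both was added after the values were seen. With the trend removed and KO replicate 3 left out, 9.46% of all genes tested were called in either direction, and Cd28 and Pdcd1 among the members.

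Icos (ENSMUSG00000026009, chr1:60977927-61000320, plus strand) encodes the inducible costimulator of activated and helper T cells. It had 32.6, 30.2 and 48.2 FPKM in the KO libraries and 31.9, 29.1 and 31.3 FPKM in the WT libraries. KO replicate 2 stood within the WT range and KO replicate 1 just above it, while KO replicate 3 was the highest of the 6 libraries, 0.63 above the WT mean on the log2 scale. The log2 fold change was 0.23 (SE 0.16, 95% interval -0.15 to 0.60, limma adjusted p = 0.866) and 0.03 without that library (adjusted p = 0.792), where the 95% interval was -0.12 to 0.18. Cd28, Ctla4 and Icos are neighbours in this order on chromosome 1, and their values in KO replicate 3 differed from the WT mean by 0.34, 0.05 and 0.63 on the log2 scale.

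Among the inhibitory receptors, Ctla4 (ENSMUSG00000026011, chr1:60887000-60915832, plus strand), the competitor of CD28 for its ligands, was expressed above 99.0% of all tested genes. Its values were 349, 386 and 403 FPKM in the KO libraries and 391, 376 and 402 FPKM in the WT libraries. The WT values lay inside the KO range. Means were 379 ± 27.4 FPKM in KO and 389.6 ± 13.2 FPKM in WT. With a 95% interval of -0.21 to 0.13 (limma adjusted p = 0.917), the log2 fold change was -0.04, and its sign changed under median scaling and without KO replicate 1. It was -0.09 without KO replicate 3 (adjusted p = 0.372).

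Pdcd1 (ENSMUSG00000026285, chr1:94038305-94052553, minus strand) encodes PD-1. It had 20.7, 19.7 and 13.8 FPKM in the KO libraries against 13.4, 14.0 and 17.1 FPKM in the WT libraries. KO replicates 1 and 2 lay above every WT library, and KO replicate 3 lay inside the WT range, the reverse of the pattern of Cd28. This gave a log2 fold change of 0.26 (SE 0.16, 95% interval -0.11 to 0.63, limma adjusted p = 0.848). It was 0.43 (SE 0.10) without KO replicate 3 and was called (adjusted p = 0.0417), and with the length and GC trend removed as well it was 0.41 (adjusted p = 0.048).

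Btla (ENSMUSG00000052013, chr16:45224315-45257670, plus strand) encodes an inhibitory receptor that binds HVEM. It had 38.8, 36.4 and 53.1 FPKM in the KO libraries against 49.2, 45.0 and 44.1 FPKM in the WT libraries. As for Cd28, KO replicates 1 and 2 were below all WT libraries and KO replicate 3 was above them. This gave a log2 fold change of -0.12 (SE 0.14, 95% interval -0.44 to 0.19, limma adjusted p = 0.887) and -0.29 without KO replicate 3 (adjusted p = 0.0388). With the length and GC trend removed as well it was -0.17 and was not called (adjusted p = 0.0757). HVEM itself, the product of Tnfrsf14, had 2.85, 2.11 and 5.10 FPKM in the KO libraries and 3.69, 3.82 and 4.05 FPKM in the WT libraries, with a log2 fold change of -0.22 (adjusted p = 0.881).

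Lag3 (ENSMUSG00000030124, chr6:124904361-124911705, minus strand), a CD4-related receptor for MHC class II, had 12.6, 11.8 and 19.1 FPKM in the KO libraries against 10.6, 9.89 and 9.16 FPKM in the WT libraries. Every KO library was above every WT library, with KO replicate 3 the farthest away. Means were 14.5 ± 4.01 FPKM in KO and 9.87 ± 0.70 FPKM in WT, and KO over WT was 1.47 as a ratio of means. The log2 fold change was 0.48 (SE 0.17, 95% interval 0.10 to 0.87), which did not pass the adjustment over all genes (limma unadjusted p = 0.0206, adjusted p = 0.842), and an exact two-sided permutation test of the 6 values gave p = 0.1, the smallest that 3 against 3 allows. It was 0.28 without KO replicate 3 (limma adjusted p = 0.0568).

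Tigit (ENSMUSG00000071552, chr16:43648867-43664146, minus strand) encodes a receptor that competes with CD226 for the poliovirus receptor. It had 5.22, 4.17 and 6.13 FPKM in the KO libraries against 3.80, 3.21 and 3.92 FPKM in the WT libraries. The groups did not overlap, with KO replicate 2 the lowest of the KO libraries and close to the highest WT library. Means were 5.17 ± 0.98 FPKM in KO and 3.64 ± 0.38 FPKM in WT, and KO over WT was 1.42 as a ratio of means. The log2 fold change was 0.40 (SE 0.13, 95% interval 0.09 to 0.71, limma unadjusted p = 0.0171, adjusted p = 0.842), the smallest unadjusted p among the members, and the exact two-sided permutation p was 0.1. Leaving out KO replicate 3 gave 0.29 (limma adjusted p = 0.126). The number of tested members in which every KO library exceeded every WT library was 2, Lag3 and Tigit, of 8, against 4.28% of all tested genes. In the opposite direction it was 0 of 8, against 6.88% of all tested genes.

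The partners of Tigit were measured in the same libraries. Cd226, its activating competitor, had 7.18, 5.45 and 8.80 FPKM in the KO libraries and 7.08, 6.55 and 5.98 FPKM in the WT libraries, and Pvr, a shared ligand, had 3.08, 3.64 and 4.70 FPKM in the KO libraries and 3.60, 3.80 and 3.95 FPKM in the WT libraries. Both overlapped between groups, with log2 fold changes of 0.09 and -0.01 (limma adjusted p = 0.910 and 0.993). The genes whose values over the 6 libraries ran most like those of Tigit were Ssbp2 (Pearson r = 0.978), Samsn1 (r = 0.972) and Stk40 (r = 0.965), as a description over 2 groups of libraries with no test.

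Havcr2 (ENSMUSG00000020399, chr11:46454935-46481255, plus strand), which encodes TIM-3, had 0.201, 0.158 and 0.0967 FPKM in the KO libraries and 0.134, 0.130 and 0.138 FPKM in the WT libraries. It was too low for the filter, and the WT values fell inside the KO range. Cd160 (ENSMUSG00000038304, chr3:96798763-96829351, minus strand) encodes a receptor best known from NK and CD8 T cells, which also binds HVEM. It had 0.893, 0.444 and 0.492 FPKM in the KO libraries against 0.401, 0.226 and 0.155 FPKM in the WT libraries. Every KO library exceeded every WT library, the ratio of means was 2.34, and the exact two-sided permutation p was 0.1. With Cd160, this held for 3 of the 10 members, against 3.79% of the whole table. For Cd160 the separation rested on 0.444 FPKM in KO replicate 2 against 0.401 FPKM in WT replicate 1. Each of its listed transcripts overlapped between the groups. A limma comparison without the filter gave Cd160 a log2 fold change of 0.35 on the log2(FPKM + 1) scale, which understates changes at such levels, and an adjusted p of 0.862.

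Markers of CD8 T and NK cells are given beside Cd160. Of 8 in the table, 4 were tested and 1, Gzmb, was called, against 0.11% of all tested genes. For 5 of the 8, every KO library was higher than every WT library, against 3.79% of the whole table. The list summed to 24.5 to 27.4 FPKM in KO libraries and 9.02 to 9.93 FPKM in WT libraries. Gzmb, granzyme B, which activated helper T cells can also express, made up most of the sum and rose to 19.2, 18.1 and 11.6 FPKM in KO libraries, against 2.66, 2.76 and 2.97 FPKM in WT libraries (log2 fold change 2.16, limma adjusted p = 0.00675). That call was lost under 4 of 14 alternatives, with adjusted p of 0.0721 without the filter, 0.0688 without KO replicate 1, and 0.0502 and 0.0543 when WT replicates 2 and 3 were left out in turn. Klrk1, Cd8a, Gzma and Nkg7 were the other 4, of which Nkg7 was tested and missed the threshold (limma adjusted p = 0.0829). Cd8b1 had 3.24, 3.18 and 5.92 FPKM in KO libraries and 3.75, 4.89 and 3.84 FPKM in WT libraries, which overlapped. None of the 8 was at 0 in every library. For other cell types, every KO library exceeded every WT library for 6 of 10 myeloid markers (sum 40.8 to 41.6 in KO, 30.4 to 31.8 in WT), 4 of 9 B cell markers (sum 23.0 to 27.7 in KO, 19.1 to 19.8 in WT), 1 of 6 regulatory T cell markers and 1 of 6 dendritic cell markers, and for 0 of 8 fibroblast and endothelial markers. These counts too are to be read against 3.79% of the whole table. Every KO library was below every WT library for 2 regulatory T cell markers, Ikzf4 and Il10, and for 1 dendritic cell marker, Xcr1. Of all tested genes, 6.88% were below in this way, and the share of the whole table was not computed. Summed FPKM was 2.21 to 3.98 in KO and 2.79 to 3.32 in WT for the fibroblast and endothelial list, 141 to 188 in KO and 165 to 177 in WT for dendritic cells, and 289 to 461 in KO and 388 to 395 in WT for regulatory T cells. Single genes made up most of several sums: Ccr7, which T cells also express, in the dendritic list (141, 162.5 and 188 FPKM in KO, 166, 165 and 177 FPKM in WT), Ctss in the myeloid list (28.4, 26.3 and 31.4 FPKM in KO, 26.6, 28.0 and 28.4 FPKM in WT), and Il2ra, also of activated T cells, in the regulatory list. Lyz2, a myeloid lysozyme, had 8.31, 9.44 and 4.24 FPKM in KO and 1.38, 1.03 and 0.782 FPKM in WT (limma adjusted p = 0.0503), and the other 5 dendritic markers were under 0.2 FPKM in every library. The part of any of these cells in the values of the receptors was not tested. Markers of the labelled CD4 T cell were all tested, with 0 of 8 called and summed FPKM of 797 to 873 in KO and 782 to 812 in WT, and all 7 Th17 markers were tested, with 0 called and summed FPKM of 266 to 423 in KO and 412 to 436 in WT.

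Cd200 (ENSMUSG00000022661, chr16:45382135-45409053, minus strand) had 56.5, 49.0 and 60.3 FPKM in the KO libraries and 53.2, 47.4 and 51.1 FPKM in the WT libraries. The ranges overlapped, and the KO libraries were spread around and above the WT values. Means were 55.3 ± 5.74 FPKM in KO and 50.6 ± 2.93 FPKM in WT, and the log2 fold change was 0.12 (SE 0.09, 95% interval -0.09 to 0.33, limma adjusted p = 0.870) and 0.06 without KO replicate 3 (adjusted p = 0.641). The gene for its receptor, Cd200r1, was under 1 FPKM on average.

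**Figure D3:**
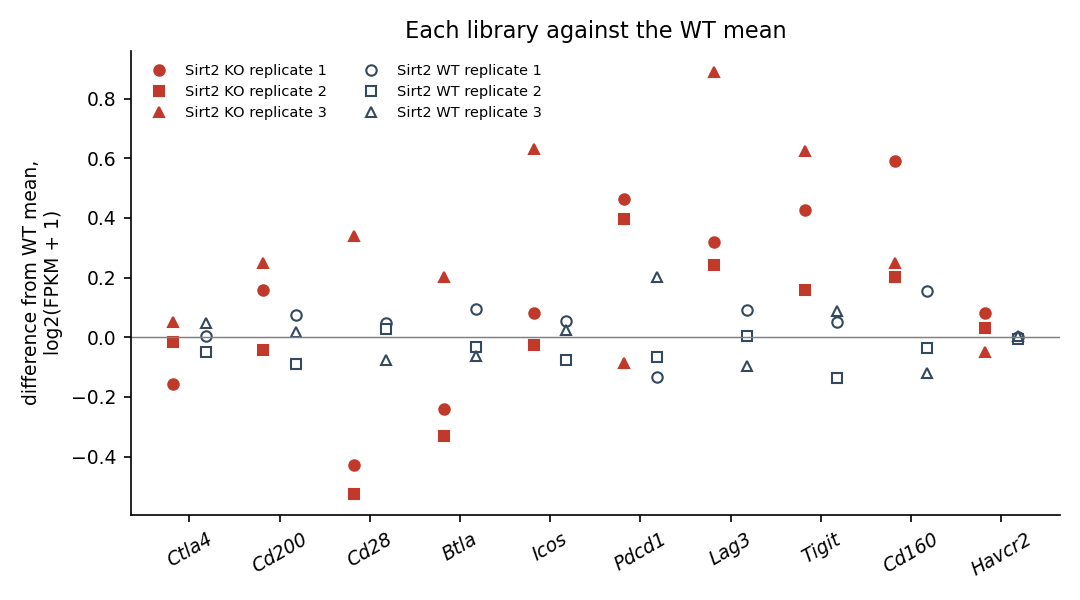
Difference of each library from the WT mean on the log2(FPKM + 1) scale for the 10 receptor genes, Sirt2 KO libraries filled and to the left, Sirt2 WT libraries open and to the right. Marker shape gives the replicate number, and the labels do not say whether it pairs libraries. KO replicate 3 lies at 0.34 for Cd28, 0.20 for Btla, 0.63 for Icos, 0.89 for Lag3 and -0.09 for Pdcd1, away from KO replicates 1 and 2.

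Read library by library, 5 of the 8 tested members were above the WT mean in KO replicate 1, 3 in KO replicate 2 and 7 in KO replicate 3. The median difference of the members from the WT mean was 0.12, -0.02 and 0.29 on the log2 scale in KO replicates 1, 2 and 3, while that of all tested genes was -0.04, -0.03 and 0.01. The positive median of the members was therefore largest in the library that stood apart, and without it the median log2 fold change of the members was 0.04, against -0.04 over all genes tested.

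The transcript table was used to ask whether splice forms differed. Gene and transcript values were the same for Pdcd1, Tigit and Havcr2, which have a single listed transcript. For Cd28, Cd200, Ctla4, Icos and Lag3 the gene value lay below that of the leading transcript alone in every library. In KO replicate 1 it was 34.6 against 48.7 FPKM for Cd28 and 56.5 against 77.9 FPKM for Cd200. In the same library it was 349 against 421 FPKM for Ctla4, 32.6 against 34.5 FPKM for Icos and 12.6 against 13.2 FPKM for Lag3. The order of levels and the ratios of receptors given here therefore hold for the gene values. Of 19184 transcripts tested in the same way, 0.0417% were called, and none belonged to a member. Leaving out KO replicate 3 gave 0.0273%, again with none of a member. The genes Pdcd1, Cd28 and Btla were called there, but their leading transcripts were not (limma adjusted p = 0.266, 0.145 and 0.255). Their log2 fold changes were 0.43, -0.48 and -0.27. For Ctla4, the 4-exon coding transcript ENSMUST00000027164 carried 421, 464 and 485 FPKM in the KO libraries and 469.8, 452 and 484 FPKM in the WT libraries. The 3-exon coding form ENSMUST00000097720 was listed at 0 in all 3 KO libraries and in 2 WT libraries, and at 0.21 FPKM in WT replicate 1. The non-coding ENSMUST00000124816, which starts upstream, had 0.88, 1.46 and 2.24 FPKM in the KO libraries against 2.64, 2.19 and 2.31 FPKM in the WT libraries, a log2 fold change of -0.45 that did not pass (limma adjusted p = 0.894). A processed pseudogene, Rpl18-ps1, lies on the same strand within Ctla4 and averaged 1.32 FPKM.

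The share of the leading transcript in a gene's summed transcript FPKM could be tested for 6 members with several transcripts. For Cd28, the coding ENSMUST00000027165 made up 99.9% ± 0.12 in KO and 99.4% ± 0.25 in WT (SD, n = 3 each), and the remainder was the retained-intron form ENSMUST00000153207, at 0.041, 0.021 and 0.23 FPKM in the KO libraries against 0.58, 0.29 and 0.26 FPKM in the WT libraries. The KO and WT shares of Cd28 did not overlap, nor did those of Ctla4 (99.7% ± 0.13 in KO, 99.5% ± 0.07 in WT), and for both the exact two-sided permutation p was 0.1 (adjusted over the 6 shares, 0.3). Both differences were under 1% of the gene's signal. For Btla, Cd200, Icos and Lag3 the shares overlapped, with exact permutation p of 0.4, 1.0, 0.3 and 1.0. The leading coding transcript of Cd200 stood at 88.4% ± 2.64 in KO and 87.9% ± 0.21 in WT, the lowest share of the 6. Its nonsense-mediated decay form ENSMUST00000166512 had 0.58, 0.39 and 0.56 FPKM in the KO libraries against 0.76, 0.97 and 0.73 FPKM in the WT libraries, with no overlap and under the filter.

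The 2 coding transcripts of Btla differ in their reading frame by 3 bases at an exon start, shown here with 15 bases on each side and the added bases in capitals (GRCm38, plus strand).
Btla ENSMUST00000063654, longer form, added bases chr16:45244153-45244155: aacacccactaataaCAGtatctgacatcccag
Btla ENSMUST00000102802, shorter form, exon start chr16:45244156: aacacccactaataatatctgacatcccag
The shorter reading frame led, at 93.3% ± 1.73 of the summed transcript FPKM in KO and 91.8% ± 1.41 in WT. The longer had 2.79, 1.90 and 4.70 FPKM in the KO libraries and 3.91, 4.66 and 3.45 FPKM in the WT libraries, which overlapped (log2 fold change -0.33, limma adjusted p = 0.914).

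Promoter windows of RefSeq (GRCm38.p6), 250 bases ending just before the annotated start, were matched for 7 of the 10 members, with 8 windows in all. They are shown for the most and the least abundant member and for Tigit, and capitals mark the match that a search of both strands found. The motifs searched were NFAT (GGAAA), AP-1 (TGANTCA), STAT (TTCNNNGAA), the NR4A element NBRE (AAAGGTCA) and the TATA box (TATAAA), and none of the marked matches overlap.
Ctla4, chr1:60908775-60909024, plus strand: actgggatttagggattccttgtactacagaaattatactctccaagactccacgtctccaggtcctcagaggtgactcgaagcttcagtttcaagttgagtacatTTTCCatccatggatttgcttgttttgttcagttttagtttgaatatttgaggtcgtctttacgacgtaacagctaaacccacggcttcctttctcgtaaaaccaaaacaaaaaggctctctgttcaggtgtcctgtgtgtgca
Tigit, chr16:43664185-43664434, minus strand: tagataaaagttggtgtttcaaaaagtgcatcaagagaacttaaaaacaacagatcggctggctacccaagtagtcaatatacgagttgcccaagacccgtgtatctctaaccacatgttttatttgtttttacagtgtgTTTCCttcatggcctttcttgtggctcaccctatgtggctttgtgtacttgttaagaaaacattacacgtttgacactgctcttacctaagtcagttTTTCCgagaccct
Havcr2, chr11:46454681-46454930, plus strand: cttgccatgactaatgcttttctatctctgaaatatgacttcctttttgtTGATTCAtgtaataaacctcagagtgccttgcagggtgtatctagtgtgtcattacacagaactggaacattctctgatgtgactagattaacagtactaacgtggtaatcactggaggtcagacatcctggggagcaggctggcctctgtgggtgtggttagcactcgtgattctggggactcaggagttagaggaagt
The short NFAT letters, read here on the other strand as TTTCC, occurred 1 time in Ctla4, 2 times in Tigit, 2 times in Pdcd1 and 1 time in 1 of the 2 windows of Cd160, and 55.6% of all 32851 windows of this length hold them. The AP-1 letters occurred in Havcr2 (6.75% of all windows) and the STAT letters in 1 window of Cd160 (7.02%). The NBRE and TATA letters, which 1.34% and 12.4% of all windows hold, were found in none of the 8 windows. These matches describe letters, not sites.

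Around the receptors, 6 lists of their pathway were followed in the same comparison, and 0 genes of any list were called with all libraries, against 0.11% of all genes tested. Counts without KO replicate 3 are to be read against the 4.0% of all genes tested that were called higher and the 6.14% called lower, and counts with the length and GC trend removed as well against 9.46% called in either direction. Of 19 receptor ligands, 16 were in the table and 8 were tested, with a median log2 fold change of 0.05 against -0.03 over all tested genes. Cd274, which encodes PD-L1, had 3.30, 3.50 and 3.28 FPKM in the KO libraries against 2.44, 2.24 and 2.77 FPKM in the WT libraries, with no overlap (log2 fold change 0.33, limma adjusted p = 0.797). Lgals9, the TIM-3 ligand galectin-9, had 36.2, 36.3 and 37.4 FPKM in the KO libraries against 32.2, 32.3 and 34.2 FPKM in the WT libraries (log2 fold change 0.15, adjusted p = 0.842). Hmgb1, also described as a TIM-3 ligand, overlapped between groups (-0.24, adjusted p = 0.842). Cd86 had 0.969, 2.20 and 2.82 FPKM in the KO libraries against 3.11, 2.89 and 2.94 FPKM in the WT libraries (-0.46, limma adjusted p = 0.842). Of the 8 tested, 2 were thus higher and 1 lower in every KO library, against 4.28% and 6.88% of all tested genes. With KO replicate 3 left out, 1 of the 8 ligands was called, Tnfrsf14, and it was lower. With the trend removed as well it was called again, beside Cd274 (0.45).

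Of 20 other co-receptors of the immunoglobulin superfamily and adhesion, 14 were tested, with a median of -0.05. Cd101, an inhibitory surface protein, had 0.685, 1.38 and 1.57 FPKM in the KO libraries against 1.98, 1.57 and 2.33 FPKM in the WT libraries (log2 fold change -0.44, limma adjusted p = 0.842). Vsir, which encodes VISTA, had 6.14, 5.50 and 6.38 FPKM in the KO libraries against 5.48, 4.80 and 4.97 FPKM in the WT libraries (0.20, adjusted p = 0.842). Neither passed, and Itgal, the alpha chain of LFA-1, had a log2 fold change of -0.08. Without KO replicate 3, 2 of the 14 were called, Cd47 and Slamf1, both lower, and with the trend removed as well 4 were called, these and Cd2 (-0.44) and Cd96 (0.26).

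Of the 23 tested genes of costimulatory signalling, the median log2 fold change was -0.07. Akt2, a kinase downstream of phosphoinositide 3-kinase, had 27.2, 27.9 and 25.5 FPKM in the KO libraries against 22.1, 22.3 and 22.4 FPKM in the WT libraries, with no overlap (log2 fold change 0.26, SE 0.06, limma adjusted p = 0.600). Traf6 had 16.8, 17.2 and 28.4 FPKM in the KO libraries and 29.4, 26.6 and 26.4 FPKM in the WT libraries, and Malt1, a paracaspase, had 15.6, 16.4 and 27.1 FPKM in the KO libraries and 26.0, 24.1 and 24.1 FPKM in the WT libraries. Both were below every WT library in KO replicates 1 and 2 but not in KO replicate 3, as Cd28 and Btla were. Without that library, 7 of the 23 were called, with Akt2 higher (0.30, limma adjusted p = 0.0206) and 6 lower, Traf6 (-0.66), Malt1 (-0.60), Pik3r1 (-0.49), Grap2 (-0.48), Tbk1 (-0.33) and Carmil2 (-0.26). With the trend removed as well 6 were called: Tbk1 (-0.24, limma adjusted p = 0.0578) and Carmil2 (-0.18, adjusted p = 0.0903) lost their calls, Fyn gained one (0.19), and Pik3r1 was at -0.28 (adjusted p = 0.0499).

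Of the 19 phosphatases and adaptors that act below inhibitory receptors, all were tested and the median was 0.02. Sh2d2a, a T cell adaptor, had a log2 fold change of 0.20, Ptpn22 of -0.18 and Ptpn6, which encodes the phosphatase SHP-1, of 0.11 (limma adjusted p = 0.842, 0.842 and 0.846). Ptpn11, which encodes SHP-2, was the only one without overlap, at 21.9, 21.2 and 21.8 FPKM in the KO libraries against 20.1, 20.8 and 20.7 FPKM in the WT libraries. Over all tested genes, 4.28% were higher in every KO library. When KO replicate 3 was left out, Sh2d2a was called higher and Ptpn22, Dgka and Cblb lower. With the trend removed as well 5 were called, with Ptpn22 no longer among them (-0.20, limma adjusted p = 0.0917), Cblb at -0.30 against -0.49 before, and Ptpn6 (0.16) and Ptpn11 (0.20) added. Of the 17 tested genes of receptor trafficking and turnover the median was -0.00, and the smallest p belonged to Ap2a1 (-0.12), a subunit of the clathrin adaptor that internalises CTLA-4, Def6 (-0.10) and Trat1 (0.15). Fbxo38, a ubiquitin ligase component that acts on PD-1, was the 1 of the 17 called without KO replicate 3, and it was lower (-0.26, limma adjusted p = 0.0432). With the trend removed as well 0 of the 17 were called, and Fbxo38 was at -0.15 (adjusted p = 0.115).

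The 20 tested transcription factors that act on these genes had a median log2 fold change of 0.07. Maf, which drives several inhibitory receptor genes, had 8.21, 10.2 and 12.5 FPKM in the KO libraries against 15.1, 15.4 and 13.7 FPKM in the WT libraries (log2 fold change -0.49, SE 0.14, limma adjusted p = 0.738). Tbx21, which encodes T-bet, had 4.38, 2.83 and 2.11 FPKM in the KO libraries against 1.62, 1.48 and 1.60 FPKM in the WT libraries (0.64, SE 0.19, adjusted p = 0.806). Groups did not overlap for either gene, nor for Bach2 (-0.20) and Nr4a3 (0.38), and none of them passed. Of the 20 tested, 2 were thus higher and 2 lower in every KO library, against 4.28% and 6.88% of all tested genes.

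Without KO replicate 3, 11 of 19 tested factors were called, 7 higher and 4 lower. The higher ones were the NR4A receptors Nr4a1 (0.71), Nr4a2 (0.69) and Nr4a3 (0.53), which antigen receptor signals induce, with Tbx21 (0.82), Id3 (0.74), Junb (0.33) and Batf (0.31). The lower ones were Irf4 (-0.65), Maf (-0.63), Hif1a (-0.56) and Foxo1 (-0.28). With the trend removed as well 10 of the 19 were called, and Foxo1, at -0.07 (limma adjusted p = 0.431), was the 1 that lost its call. Nr4a1 had 97.0, 87.6 and 53.2 FPKM in the KO libraries against 57.8, 54.8 and 55.0 FPKM in the WT libraries, with KO replicates 1 and 2 alone above the WT libraries, as for Pdcd1. Irf4 had 107, 110.1 and 199.9 FPKM in the KO libraries against 175, 172 and 167 FPKM in the WT libraries, with KO replicates 1 and 2 below and KO replicate 3 above them, as for Cd28 and Btla.

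**Figure D4:**
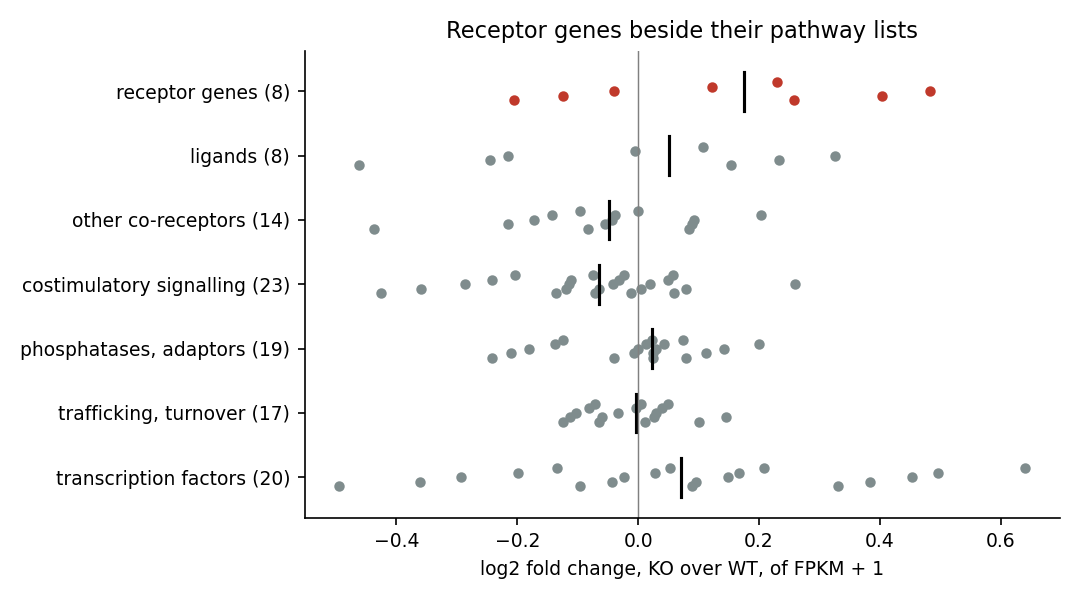
Log2 fold change of FPKM + 1, KO over WT, for each tested receptor gene (red) and each tested gene of the 6 pathway lists (grey), with the number tested in brackets and the median as a black bar. The receptor median is 0.18, those of the lists run between -0.07 and 0.07, and no point passed the adjusted threshold.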

How the data were processed

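The authors deposited a gene table (24182 genes) and a transcript table (73900 transcripts) in FPKM, a fragment count divided by transcript length and library size, with a column for each of the 6 libraries, per the file headers. A deposited ratio column is the KO mean over the WT mean, with its log2 beside it. The authors' p-value and q-value for each feature, deposited in the same tables, came from a tool not given in the sources used here. Per the submitters' processing notes, cutadapt, FastQC, HISAT2, StringTie, DESeq2 and edgeR were used, without versions. Those notes name mm9, but 73240 of 73430 transcript IDs found in GENCODE vM21 had the same coordinates in GRCm38, so GRCm38 is given. Depth is unknown: at most 8.87% of low values lay within 0.02 of a whole-read step, so reads were not recovered, and no counting interval is given.

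KO and WT were compared with limma 3.58.1 (R 4.3.3) on log2(FPKM + 1) with a mean trend, after a filter of 1 FPKM in at least 3 of 6 libraries, adjusted over all features by Benjamini-Hochberg and called under 0.05. FPKM is relative to each library's total. Exact permutation tests (two-sided, smallest p 0.1) were run on the 6 values of single members and on transcript shares. The members and lists were chosen with earlier results of these data known. Named genes were the members, Sirt2, up to 3 genes of each pathway list with the smallest p, up to 3 transcripts of highest mean per member, and the 3 genes that run most like the member of smallest p. Tnfrsf14, Cd226, Pvr, Cd200r1, Cd86, Ptpn11, Nr4a3, Fbxo38 and the cell type markers named were chosen after values were seen. So were the genes named for a call without KO replicate 3, with or without the trend, and the low transcripts of Cd28 and Cd200. The fits were run on simulated data with known changes, and the outcome is not given here. Noise was drawn independently for each gene, so the simulation does not hold the library-wide difference of KO replicate 3 or the length trends. Figures were drawn with matplotlib 3.10.9.

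Alternatives were a pseudocount of 0.1, median scaling, a filter at 5 FPKM or none, a variance with no trend, a replicate block, removal of length and GC trends (known for 99.6% of tested genes), a threshold of 0.01, and leaving out each library. Length and GC content were those of the most abundant transcript of each gene. Removal of these trends without KO replicate 3 was added after the data were seen.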

Additional observations from a re-analysis of the deposited data

How the results depend on the processing

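The count of members called was 0 of 8 with limma (2 at an unadjusted p under 0.05) and stayed 0 under a pseudocount of 0.1, median scaling, a filter at 5 FPKM or none, a variance with no trend, removal of length and GC trends, a threshold of 0.01 and the replicate block. Leaving out 1 library gave 0 to 3 members, with 3 without KO replicate 3 (Pdcd1, Cd28 and Btla), and with length and GC trends removed as well it gave 2 (Pdcd1 and Cd28). Over all genes, 12 were called, 5 with a filter at 5 FPKM, 7 at a threshold of 0.01, 0 to 1088 when 1 library was left out (0 without KO replicate 1, 6 without KO replicate 2, 1088 without KO replicate 3, and 6, 1 and 4 without WT replicates 1, 2 and 3), and 1010 without KO replicate 3 and with the trends removed. The pathway lists gave 0 genes, 0 to 26 when 1 library was left out, with 26 without KO replicate 3, and 27 with the trends removed as well. The log2 fold change of Ctla4 of -0.04 became 0.0019 under median scaling and ran between -0.0854 (without KO replicate 3) and 0.0176 (without KO replicate 1) when 1 library was left out. The cause of these changes was not tested. The labels do not say whether replicate numbers pair the libraries. Deviations of same-numbered libraries correlated at 0.01, -0.02 and -0.08, which with 3 libraries per genotype cannot decide it. With the replicate block 13 genes, 0 members and 0 transcripts of members were called. Tigit has no value under the filter at 5 FPKM. For Lag3 the log2 fold change ran between 0.27 and 0.60 and the adjusted p between 0.0568 and 0.999 over the alternatives, and for Tigit between 0.21 and 0.52 and between 0.126 and 0.999. The number of libraries, 3 per genotype, and values under 1 FPKM limit what could be seen for Havcr2 and Cd160.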

Other observations

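Ratios of opposing receptors within a library were computed from the gene values, after these were seen. The ratio of Ctla4 to Cd28 was 10.1, 11.9 and 6.76 in KO replicates 1 to 3 and 8.03, 7.85 and 9.04 in WT replicates 1 to 3. KO replicates 1 and 2 had the highest values of the 6 libraries and KO replicate 3 had the lowest (exact two-sided permutation p = 0.6). The ratio of Tigit to its activating competitor Cd226 was 0.727, 0.765 and 0.697 in KO libraries against 0.536, 0.49 and 0.655 in WT libraries. It was higher in every KO library than in every WT library, with KO replicate 3 the lowest of the KO libraries and nearest to the WT values (exact two-sided permutation p = 0.1, the smallest that 3 against 3 allows).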
